A study of Mus musculus with 6 samples.

Results

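The phagocyte NADPH oxidase genes *Cybb*, *Cyba*, *Ncf1*, *Ncf4*, *Rac1* and *Rac2* were examined in microglia from Bhlhe41-deficient mice. The members were all noncontrol probes whose transcript identifier maps to one of these symbols, which gave 10 probes for 6 genes out of 56601 tested probes and 23462 named genes. The arrays compared purified microglia of *Bhlhe41* dTomato-Cre/+ mice (B41HET, the controls) with those of *Bhlhe41* dTomato-Cre/dTomato-Cre mice (B41KO), 3 samples each. All mice were 3 months old and on the C57BL/6 background, and both genotypes carried the cassette, driven by the *Bhlhe41* promoter, that expresses dTomato and Cre and stops Bhlhe41 translation, on 1 allele in B41HET and on both in B41KO. B41HET is therefore a heterozygous control, not a wildtype one. Viable CD45lo Cx3cr1+ CD11b+ cells were sorted from the brain, and each sample was pooled from several mice according to the Methods, while the labels name 3 mice per genotype.

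The phagocyte oxidase moves electrons from NADPH across a membrane onto oxygen and so makes superoxide. Its catalytic core, cytochrome b558, sits in the membrane as a pair of proteins, gp91phox and p22phox, and is silent until a cytosolic complex that includes p47phox and p40phox docks on it together with GTP-bound Rac. The enzyme is best known from neutrophils, is also made by monocytes and macrophages, and is the main superoxide source described in microglia.

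Among the 6 genes, *Cybb* was about 4-fold lower in B41KO microglia on both of its probes, and no other member passed the threshold for a call. With another background correction the *Cybb* difference was smaller, though both probes were still called. *Rac2* was lower by a smaller step. The other subunit of the membrane core, *Cyba*, differed in direction between its probes, and the 3 probes of the organizer *Ncf1* lay above 0 with none called.

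To show the DNA next to the start of the genes in question, the windows from 250 bases before to 30 bases after the annotated start are given for *Cybb*, the member that was called, and for the 2 other members found in the RefSeq promoter table, *Cyba* and *Ncf1* (3 of 6 members matched; build GRCm38.p6). The *Cybb* window is chrX:9469295-9469574, that of *Cyba* is chr8:122432911-122433190 and that of *Ncf1* is chr5:134229596-134229875, all on the minus strand and written 5′ to 3′. Capitals mark E-box cores (CANNTG, which reads the same on both strands) and a longer form of the ETS factor core (GAGGAA, or TTCCTC on the other strand). Other matches to the shorter ETS core GGAA are not marked or counted.
Cybb: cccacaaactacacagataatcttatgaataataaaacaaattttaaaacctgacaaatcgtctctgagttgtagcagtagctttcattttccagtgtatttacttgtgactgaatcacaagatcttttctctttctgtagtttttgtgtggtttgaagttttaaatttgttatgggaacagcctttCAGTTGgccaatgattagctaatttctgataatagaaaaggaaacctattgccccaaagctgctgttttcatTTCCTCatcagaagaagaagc
Cyba: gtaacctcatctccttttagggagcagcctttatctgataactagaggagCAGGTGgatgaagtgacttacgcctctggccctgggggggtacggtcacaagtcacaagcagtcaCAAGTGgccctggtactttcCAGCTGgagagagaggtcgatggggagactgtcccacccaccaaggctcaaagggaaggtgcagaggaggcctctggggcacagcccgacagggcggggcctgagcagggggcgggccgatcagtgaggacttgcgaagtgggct
Ncf1: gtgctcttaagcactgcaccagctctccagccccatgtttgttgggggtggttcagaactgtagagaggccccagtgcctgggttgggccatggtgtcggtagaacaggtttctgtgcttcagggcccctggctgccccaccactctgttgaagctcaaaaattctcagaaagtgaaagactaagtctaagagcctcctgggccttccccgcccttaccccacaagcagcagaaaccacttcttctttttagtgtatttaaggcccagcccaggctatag
None of the 3 windows held CACGTG, the E-box form bound by Bhlhe41 and its relatives, which 6.79% of 32851 windows of this length in the table hold. CANNTG, which includes CACGTG, was found 1 time in the *Cybb* window, 3 times in that of *Cyba* and 0 times in that of *Ncf1*, and 70.1% of all windows hold it. The *Cybb* window held 1 GAGGAA motif, on the opposite strand and starting at base 10 of the transcript, and 26.0% of all windows hold one on either strand. The motifs did not overlap in the windows printed. The *Cybb* window was 34.3% G and C, against 60% for *Cyba* and 53.9% for *Ncf1*. A match of letters is a description of the window and not a binding site.

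Each array was hybridized in 1 colour, so a probe gives a single fluorescence signal per sample, given here as log2 after quantile normalization over the 6 arrays. A probe was called when limma gave a Benjamini-Hochberg adjusted p of 0.05 or less over all probes together with an absolute log2 fold change (B41KO minus B41HET) of 0.5 or more. All 6 arrays lay on 1 slide, with the B41HET samples and B41KO 1 in row 1 and the remaining B41KO samples in row 2. Between 70.1% and 75.5% of probes were well above background per array, and no spot was saturated. All 10 members of the microglia marker list were well above background on all arrays. The brightest *Bhlhe41* probe was 0.38 higher in B41KO and did not pass (limma, adjusted p = 0.330), and the second one was 0.33 higher (adjusted p = 0.203), so the transcript does not check the genotype labels in an allele built to stop translation.

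All 10 oxidase probes were well above background on all 6 arrays and 0 had an outlier flag. Of them 2 were called lower, 0 were called higher and 8 were not called, where 5.07% of all probes were called, 3.34% lower and 1.72% higher. The genes were chosen with earlier results of these data known, so these counts describe them and are no test. By the brightest probe of each gene, 1 of 6 genes was called, against 5.45% of all genes (4.01% lower and 1.44% higher) and 6.49% of the genes above background on all arrays. On the adjusted p alone 3 of 10 probes passed, against 6.73% of all probes, and 2 of 6 genes, against 7.56% of all genes. The groups did not overlap for 6 of the 10 probes, 4 of them lower and 2 higher in B41KO, against 29.7% of all probes (15.2% lower and 14.5% higher). The median log2 fold change over the 6 genes was -0.23, against 0.007 over all genes, whose median absolute log2 fold change was 0.19.

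**Figure D1:**
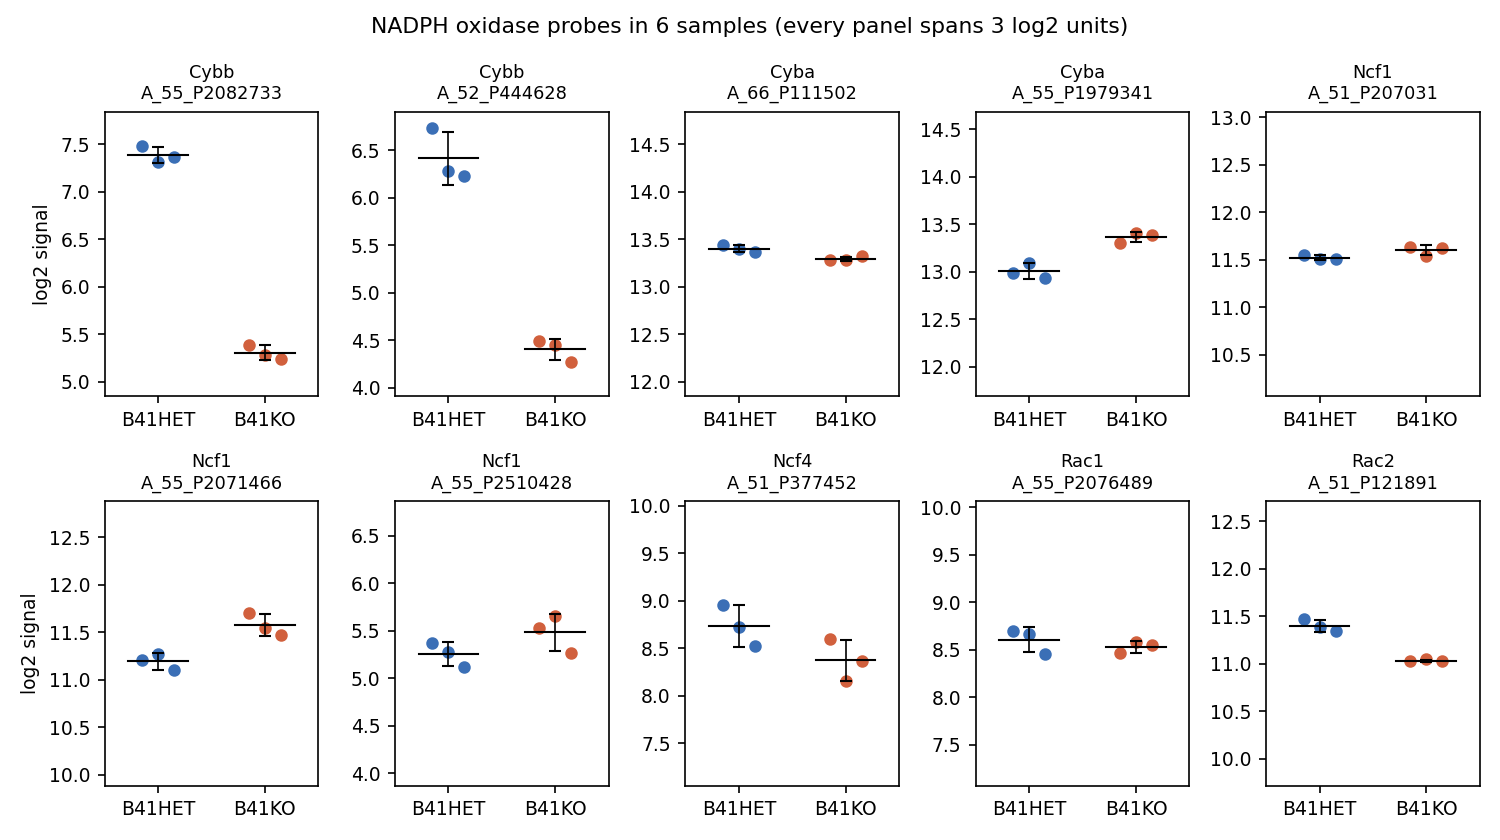
Quantile-normalized log2 signal (y axis) of the 10 oxidase probes in the 3 B41HET (blue) and 3 B41KO (red) samples, one panel per probe, each spanning 3 log2 units, with the mean (line) and SD (bar). For both *Cybb* probes the genotypes lie apart, at 7.31 to 7.48 against 5.24 to 5.39 for the brighter one, while the other panels show differences below 0.5.

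*Cybb* encodes gp91phox, also named NOX2, the subunit that carries the electrons and makes superoxide. Its brighter probe (A_55_P2082733, designed on NM_007807) gave log2 signals of 7.48, 7.31 and 7.36 in B41HET samples 1, 2 and 3. In B41KO samples 1, 2 and 3 the values were 5.39, 5.28 and 5.24. Every B41KO sample was below every B41HET sample, with a gap of 1.92 between the nearest of them. Before normalization, the processed intensities of this probe were 198, 181 and 161 in B41HET and 38.1, 39.8 and 35.3 in B41KO, so the same separation was seen on each array's own scale. The means were 7.38 ± 0.09 and 5.30 ± 0.08 (SD, n = 3 each), a log2 fold change of -2.08 with a standard error of 0.08 and a 95% interval of -2.29 to -1.88. That is a 4.23-fold lower signal in B41KO (limma, Benjamini-Hochberg adjusted p = 0.000895), and an exact two-sided permutation test gave 0.1, the smallest p that 3 against 3 samples allow.

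The second *Cybb* probe (A_52_P444628, on the same transcript) gave 6.73, 6.28 and 6.23 in B41HET and 4.49, 4.44 and 4.27 in B41KO. Again the groups did not overlap, here with a gap of 1.74 between the nearest samples, although B41HET 1 was above its companions. The means were 6.41 ± 0.28 and 4.40 ± 0.11 (SD, n = 3 each), the log2 fold change was -2.01 with a standard error of 0.16, and the 95% interval ran from -2.40 to -1.62. B41KO was 4.03-fold lower (limma, adjusted p = 0.00469). The log2 fold changes of the probes differed by -0.07, which is within the spread of the samples (exact permutation test, p = 0.6).

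Counted from the lowest log2 fold change, the brighter *Cybb* probe stood at rank 56 of 23462 genes. Among the 17222 genes well above background on every array it stood at rank 30. The members next in order were *Rac2* at rank 1990 and *Ncf4* at rank 2045 of these genes.

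The size of the *Cybb* difference depended on the background correction. With normexp and an offset of 50 in place of the scanner's own subtraction, the log2 fold changes were -1.19 and -0.89 on the brighter and the second probe, both still called. An added offset draws dim signals together, and the processed B41KO intensities of the brighter probe, 35.3 to 39.8, lay below 50. Within slide row 1, B41KO 1 was lower than the B41HET mean by 1.99 and 1.93 on the log2 scale. A fit with slide row as a block gave the same values, -1.99 and -1.93. Row 2 held only B41KO samples, so here and below that fit compares B41KO 1 alone with the B41HET samples. The brighter probe was called in all 14 refitted alternatives and the second one in 12 of 14.

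**Figure D2:**
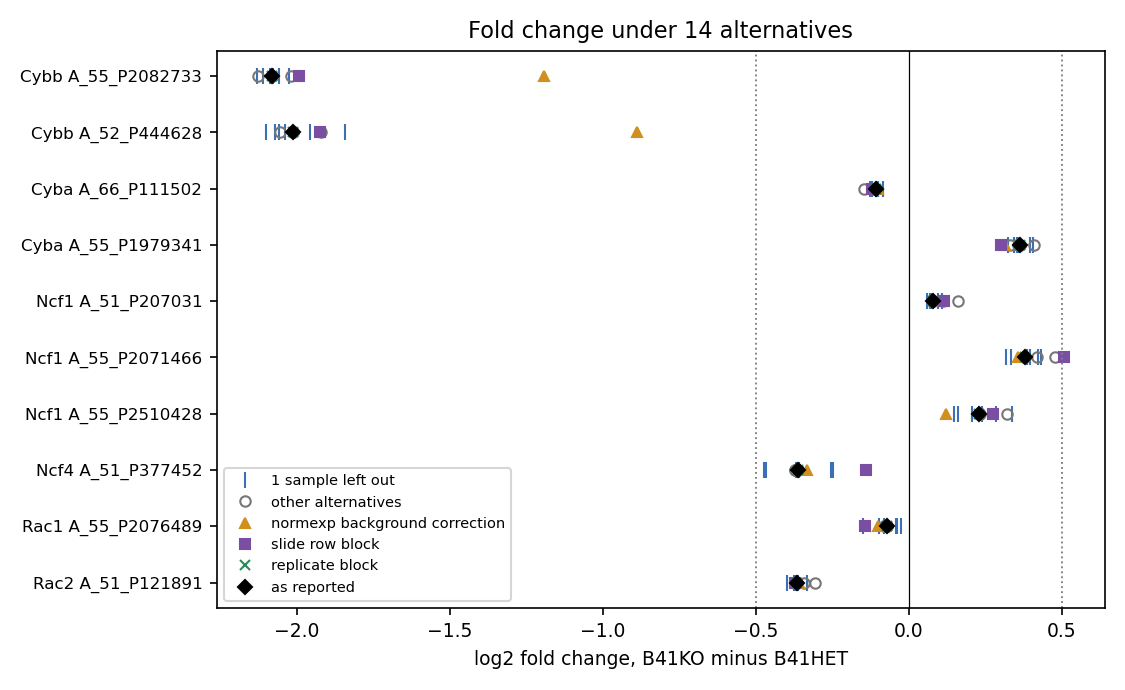
Log2 fold change (x axis, B41KO minus B41HET) of each oxidase probe as reported (black diamond) and under 14 alternatives, with the dotted lines at the fold threshold of 0.5. Replicate block markers lie under the diamonds. For *Cybb* all values are below 0, with normexp background correction nearest to 0 at -1.19 and -0.89, and no probe of another gene changes sign.

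*Cyba* encodes p22phox, the partner that stabilizes gp91phox in the membrane. Its brighter probe (A_66_P111502, on NM_001301284) gave 13.44, 13.40 and 13.36 in B41HET and 13.28, 13.28 and 13.32 in B41KO. The groups did not overlap but lay only 0.04 apart. The log2 fold change was -0.11 with a standard error of 0.06 and a 95% interval of -0.27 to 0.05 (limma, adjusted p = 0.401).

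The second *Cyba* probe (A_55_P1979341, on NM_007806) pointed the other way. It gave 12.99, 13.10 and 12.93 in B41HET and 13.31, 13.41 and 13.39 in B41KO, again without overlap. Its log2 fold change was 0.36 with a standard error of 0.08 and an interval of 0.17 to 0.56, short of the fold threshold and with an adjusted p of 0.0544 in limma. That p was 0.0437 with the authors' values, 0.0409 with normexp, 0.0383 without dim probes and 0.0134 with trend and robust variance, each without a call. The log2 fold changes of the probes differed by -0.47, and the exact permutation test over the samples gave the smallest p it can, 0.1. The mean over both probes was 0.13 (limma, adjusted p = 0.342), so no single direction can be given for *Cyba*.

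*Ncf1* encodes p47phox, the organizer that carries the cytosolic complex to the membrane once it is phosphorylated. Its brightest probe (A_51_P207031, on NM_010876) gave 11.55, 11.51 and 11.51 in B41HET and 11.64, 11.54 and 11.62 in B41KO. These groups overlapped, and the log2 fold change was 0.08 with a standard error of 0.07 and an interval of -0.09 to 0.25 (limma, adjusted p = 0.562). A probe on another messenger RNA isoform (A_55_P2071466, on NM_001286037) gave 11.21, 11.28 and 11.10 in B41HET and 11.70, 11.55 and 11.48 in B41KO. On it every B41KO sample was above every B41HET sample, with a log2 fold change of 0.38, a standard error of 0.09 and an interval of 0.15 to 0.61 (limma, adjusted p = 0.0757). The adjusted p was 0.0489 with the authors' values, 0.0403 with normexp, 0.0486 without dim probes and 0.0299 with trend and robust variance at log2 fold changes under 0.5, and with slide row as a block the log2 fold change was 0.51 at an adjusted p of 0.158. The log2 fold changes of these *Ncf1* probes differed by -0.30 (exact permutation test, p = 0.1, the smallest possible).

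The third *Ncf1* probe (A_55_P2510428) is designed on NR_104383, a noncoding transcript of the gene. It gave 5.37, 5.27 and 5.12 in B41HET and 5.53, 5.65 and 5.27 in B41KO, which overlap. The log2 fold change was 0.23 with a standard error of 0.13 and an interval of -0.09 to 0.55 (limma, adjusted p = 0.363). It differed from that of the brightest probe by -0.15 (exact permutation test, p = 0.4).

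*Ncf4* encodes p40phox, the cytosolic subunit that binds a phosphoinositide of the phagosome membrane. Its single probe (A_51_P377452) gave 8.96, 8.72 and 8.53 in B41HET and 8.60, 8.16 and 8.37 in B41KO. The groups overlapped because B41KO 1 was above B41HET 3. The log2 fold change was -0.36 with a standard error of 0.16 and an interval of -0.76 to 0.04 (limma, adjusted p = 0.258), so a decrease past the fold threshold lies within the interval. In the fit with slide row as a block the value was -0.14.

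*Rac1* and *Rac2* encode the small GTPases that switch the assembled enzyme on, *Rac1* in most cell types and *Rac2* in cells of the blood lineage. The *Rac1* probe (A_55_P2076489) gave 8.70, 8.66 and 8.45 in B41HET and 8.46, 8.58 and 8.55 in B41KO. The B41KO values lay inside the B41HET range. The log2 fold change was -0.07 with a standard error of 0.09 and an interval of -0.30 to 0.16 (limma, adjusted p = 0.706).

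The *Rac2* probe (A_51_P121891) gave 11.47, 11.39 and 11.35 in B41HET and 11.03, 11.05 and 11.03 in B41KO. All B41KO samples were below all B41HET samples, with a gap of 0.30, and the B41KO values lay close together. The means were 11.40 ± 0.06 and 11.03 ± 0.01 (SD, n = 3 each), a log2 fold change of -0.37 with a standard error of 0.07 and an interval of -0.54 to -0.20. *Rac2* was 1.29-fold lower and passed the adjusted p alone (limma, adjusted p = 0.0389) but not the fold threshold. With 1 sample left out, the adjusted p in limma lay between 0.0831 and 0.125 whichever sample it was, at log2 fold changes of -0.40 to -0.33. It was 0.0668 with the authors' own processed values (-0.31), 0.0845 after the 75th percentile shift (-0.34), 0.212 with slide row as a block (-0.37) and 0.119 with the replicate number as a block (-0.37).

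**Figure D3:**
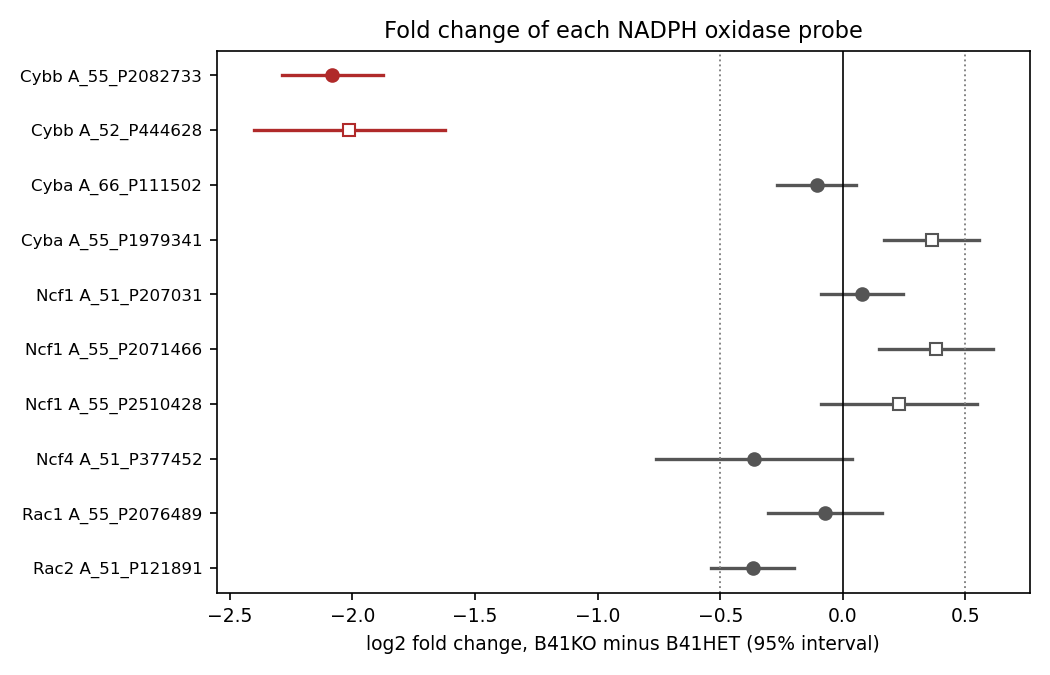
Log2 fold change (x axis, B41KO minus B41HET) of the 10 oxidase probes with 95% intervals from limma, the brightest probe of a gene as a filled circle and other probes as open squares, called probes in red, fold threshold dotted. The intervals of both *Cybb* probes end below -1.6, whereas those of *Cyba* A_66_P111502, *Ncf1* A_51_P207031 and A_55_P2510428, *Ncf4* and *Rac1* include 0.

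Markers of some other cell types differed between the genotypes together with *Cybb* and *Rac2*. All gene lists were chosen with earlier results of these data known, so their counts are descriptions and no test. The sort was for CD45lo Cx3cr1+ CD11b+ cells. Neutrophils are high in CD45 and lack Cx3cr1, monocytes are high in CD45, and endothelial cells lack CD11b. The paper gives the purity of the sort as a lower bound short of complete, and the share of such cells in the samples was not tested. Of 13 neutrophil markers, 9 were called lower in B41KO, where 5.45% of all genes were called and 4.01% were called lower, with log2 fold changes of -3.17 to -1.69 and a median over the list of -2.22. Among them were the calgranulin genes *S100a8* (-2.22) and *S100a9* (-2.52), the granule protein gene *Ltf* (-3.17) and the surface antigen gene *Ly6g* (-2.48). The others were *Mmp8* at -0.61, *Cxcr2* at -0.09, *Elane* at -0.04 and *Mpo* at 0.39, and none of them passed. All 13 were well above background on every array of both genotypes. The summed signal of the list was 31517 to 35430 in B41HET and 6330 to 6714 in B41KO, a log2 ratio of -2.36.

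Against the same 4.01% of all genes called lower, 3 of 6 monocyte markers were called lower, namely *Ly6c2* (-2.10), *Plac8* (-2.68, above background on 2 of 3 B41KO arrays) and *Chil3* (-2.26), while *Ccr2*, the chemokine receptor of inflammatory monocytes, was at -0.30 and was not called. The summed monocyte signal was 1381 to 1455 in B41HET and 386 to 410 in B41KO. Of 8 border macrophage markers, 5 were called lower, with summed signals of 2372 to 2568 against 1605 to 1790. The list median was -1.18 and became -0.42 with normexp background correction. The value of -1.18 is set in part by *Mrc1*, which was dim in B41KO, so it is not an exact fold difference. The border macrophage count was 2 with normexp, 1 with slide row as a block, 0 with the replicate block, 2 without B41HET 2, 3 without B41HET 1, B41HET 3 or B41KO 2 and 4 without either of the other samples. The defining border macrophage genes *Mrc1* and *Lyve1* were well above background on all 3 B41HET arrays but not on any B41KO array. Both were lower in B41KO without overlap and were not called. *F13a1*, which was called, was above background on 1 of 3 B41KO arrays. Of 6 endothelial markers 2 were called lower, *Pecam1* (-1.68) and *Ly6c1* (-1.79), both of which leukocytes also express, while *Cldn5* (-0.13) and *Kdr* (-0.01) were not called and the remaining 2 were at background on all arrays. With the replicate block the neutrophil, monocyte and endothelial counts were 6, 1 and 0. The summed signal of the endothelial list was 1153 to 1261 in B41HET and 404 to 456 in B41KO. Its median fold change is set by *Flt1* and *Tek*, the 2 at background, so it is not given. 

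The summed signals overlapped between genotypes for the microglia markers (154739 to 168805 in B41HET and 154512 to 162037 in B41KO), and also for the B cell and the T and NK cell markers, although a sum is led by its brightest genes. Among the 6 B cell markers *Cd79a*, a subunit of the B cell receptor, was called lower at -0.99 (limma, adjusted p = 0.00919). It was not called with normexp or with the replicate block. Of 10 microglia markers 1 was called, against 5.45% of all genes, namely *Fcrls*, an Fc receptor-like gene of microglia, at -0.76. The call of *Fcrls* was lost with the replicate block. *P2ry12*, *Cx3cr1*, *Fcrls* and *Ptprc* were lower in B41KO without overlap, 4 of 10, and 1 microglia marker, *Csf1r*, was higher without overlap, against 32.2% of all genes without overlap in either direction. *Itgam*, which encodes the CD11b of the sort and is also carried by neutrophils and monocytes, was at -0.03 and was not called. Neutrophils and monocytes make *Cybb* and *Rac2* themselves, and the part of these cell types in the *Cybb* and *Rac2* differences was not tested. In RNA from a whole sorted sample, fewer cells of a type and less RNA per cell cannot be told apart.

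**Figure D4:**
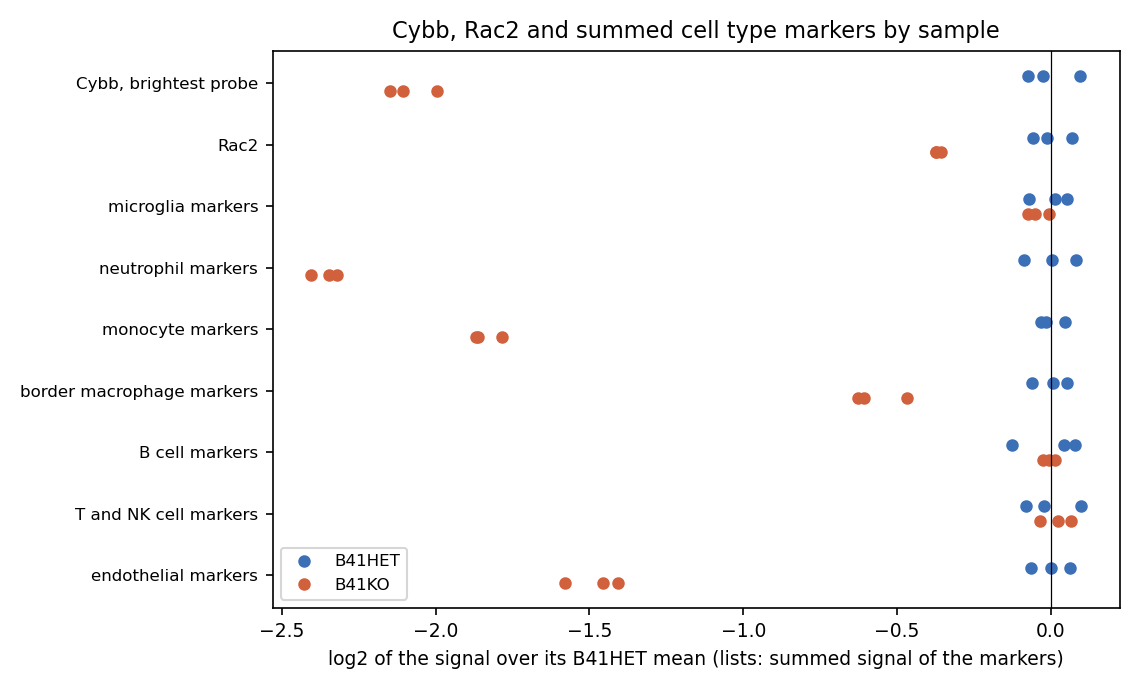
Log2 of the signal relative to its B41HET mean (x axis) for the brighter *Cybb* probe, for *Rac2* and for the summed signals of 7 marker lists in each B41HET (blue) and B41KO (red) sample. The neutrophil, monocyte, endothelial and border macrophage sums lie apart between genotypes, as *Cybb* and *Rac2* do, and the microglia, B cell and T and NK cell sums overlap.

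Around the 6 members, 40 genes on 5 lists of related function were measured, of which 2 were called lower and 1 higher. No gene was called among 8 other NOX family enzymes and partners, 5 genes of oxidase assembly and support or 11 Rac regulators by the brightest probe. A dimmer probe of *Abr*, a Rac regulator, was called lower (-0.69, limma adjusted p = 0.0177) while its brightest one was at -0.03, and a dimmer probe of the kinase gene *Pik3cd* was called lower (-0.58, adjusted p = 0.0165) while its brightest one was at -0.17. The counts were 1 of 9 for kinases upstream of assembly and 2 of 7 for superoxide and peroxide removal, against 5.45% of all genes.

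Among the other NOX enzymes, which make superoxide or hydrogen peroxide in other tissues, the lowest p-values belonged to *Nox1* (-0.39, limma adjusted p = 0.169), *Nox3* and *Nox4* (0.41, adjusted p = 0.311). *Nox1* was above background on 1 of 3 B41KO arrays only. *Nox3* was at background on all 6 arrays, so no fold is given, and only 4 of 8 were detected above background in all samples.

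Of the assembly and support genes, *Nrros*, a regulator that lowers oxidase subunit protein, gave 11.30, 11.26 and 11.22 in B41HET and 11.08, 10.71 and 10.93 in B41KO, without overlap (-0.36, limma adjusted p = 0.128). *Hvcn1*, the voltage-gated proton channel that balances the charge the oxidase moves, was at 0.12 (adjusted p = 0.523), and *Rap1a*, a small GTPase found with cytochrome b558, was at -0.15 (adjusted p = 0.642).

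Rac proteins are held in the cytosol by GDP dissociation inhibitors, of which *Arhgdib* is the form of blood cells. Its brightest probe gave 13.71, 13.82 and 13.72 in B41HET and 13.30, 13.24 and 13.25 in B41KO. Like *Rac2* it did not overlap and passed the adjusted p but not the fold threshold (-0.49, limma adjusted p = 0.0199), and its second probe gave -0.05. It was called after a 75th percentile shift (-0.53) and with the authors' values (-0.51) or normexp (-0.53), and it lost the adjusted p with the replicate block (0.0965), with slide row as a block (0.156) and with any single sample left out (0.0624 to 0.0843). The next 2 of this list were *Bcr*, which holds a GTPase-activating domain for Rac, at 0.30 (adjusted p = 0.105), and *Arhgdia*, the widely expressed inhibitor, at -0.19 (adjusted p = 0.255).

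Kinases that phosphorylate p47phox or act upstream of it were below 0 for 8 of 9 genes, with 7 of them lower in B41KO without overlap, where 32.2% of all genes did not overlap in either direction. The other one, *Mapk14*, a stress-activated kinase, was higher without overlap at 0.31 and was not called (limma, adjusted p = 0.114). With normexp, 7 of 9 were below 0. *Pak1*, a kinase activated by Rac, was called lower. It gave 7.59, 7.54 and 7.40 in B41HET and 6.91, 6.77 and 6.56 in B41KO, with a log2 fold change of -0.77, a standard error of 0.11 and an adjusted p of 0.0229 in limma. *Prkca*, a protein kinase C, was at -0.47 (adjusted p = 0.0179), *Pak2* was at -0.36 (adjusted p = 0.0706) and *Pik3cg*, a phosphoinositide 3-kinase of leukocytes, was at -0.28 (adjusted p = 0.0942). *Prkca* lost the adjusted p in limma with the replicate block (0.0928) and with any single sample left out (0.0549 to 0.0799).

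Of the enzymes that remove superoxide and peroxide, *Cat*, the catalase gene, was called lower. It gave 7.73, 7.38 and 7.66 in B41HET and 6.97, 7.10 and 6.81 in B41KO, with a log2 fold change of -0.63, a standard error of 0.13 and an adjusted p of 0.0479 in limma. *Sod3*, the extracellular superoxide dismutase, was called higher (limma, adjusted p = 0.0145) but was not well above background on any of the 6 arrays, so no fold is given. *Sod1*, the cytosolic dismutase, gave 9.89, 9.80 and 9.78 in B41HET and 9.46, 9.55 and 9.33 in B41KO (-0.38, adjusted p = 0.0611). *Prdx1* was at 0.24 (adjusted p = 0.452), and *Sod2* was well above background on 1 array only.

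Some of these calls were lost when a sample was left out, although the log2 fold changes then lay between -0.85 and -0.68 for *Pak1* and between -0.73 and -0.56 for *Cat*. *Pak1* was called without B41KO 1 and lost its call without any other single sample, at adjusted p-values in limma of 0.0526 without B41KO 3 to 0.0923 without B41HET 2. *Cat* lost its call whichever sample was left out, at 0.0715 without B41HET 2 to 0.137 without B41HET 1, as well as after the 75th percentile shift (adjusted p = 0.0576) and with normexp, where its log2 fold change was -0.42. Both were also lost with slide row as a block, at -0.60 and -0.62 (adjusted p = 0.162 and 0.250). The call of *Sod3* was lost with normexp (adjusted p = 0.179), with slide row as a block (adjusted p = 0.121) and without B41HET 2 (0.0698), B41HET 3 (0.0575) or B41KO 1 (0.0536).

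**Figure D5:**
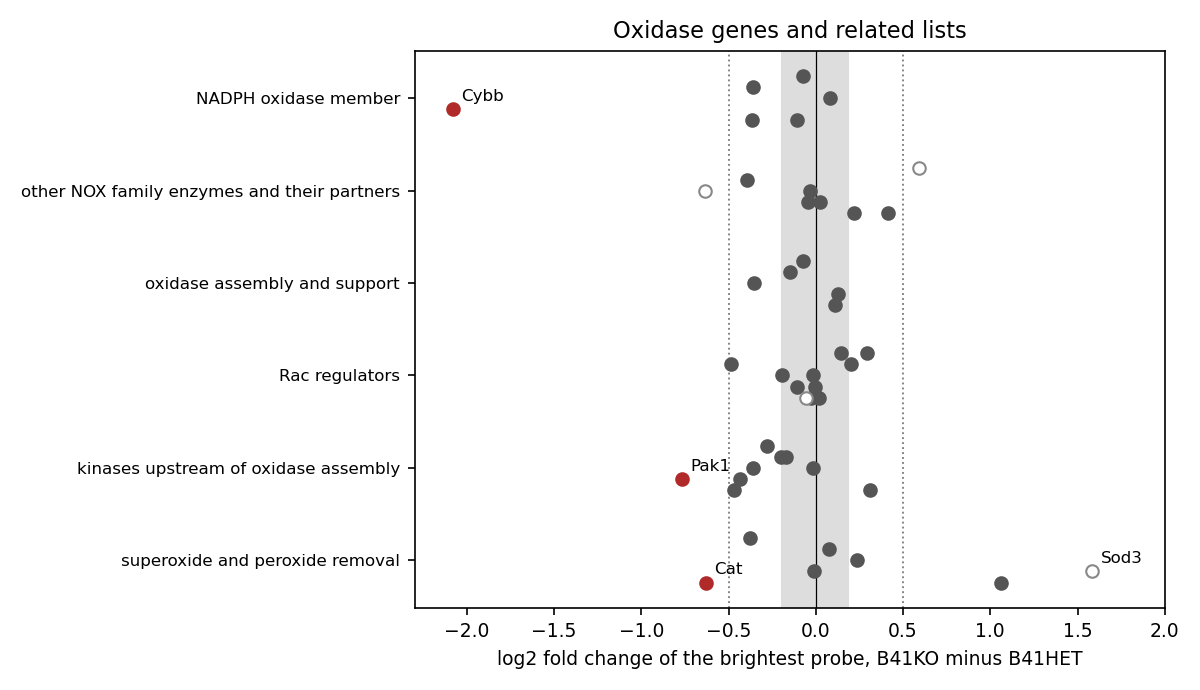
Log2 fold change (x axis, B41KO minus B41HET) of the brightest probe of each gene for the oxidase members and 5 related lists, with called genes in red, genes not well above background on any array as open circles, the fold threshold dotted and the middle 50% of all genes shaded. Apart from *Cybb*, the called genes above background are *Pak1* and *Cat*.

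Among 17206 other genes above background on all arrays, those whose brightest probe followed a member most closely over the 6 samples were named by Pearson r, which with 3 samples per genotype is set mostly by the difference between genotypes. For *Cybb* they were *Atp13a1*, *Icam4* and *Tbc1d2b* (r of 0.9995, 0.9994 and 0.9994). For *Rac2* they were *Rps3*, *Hnrnpab* and *Ago2* (0.999 each). For *Cyba* they were *Zfp458*, *Mgat2* and *Ppil2* (0.997, 0.993 and 0.993), and for *Ncf1* *Mllt10*, *Zfp780b* and *Amy1* (0.993, 0.990 and 0.990). *Ncf4* was followed by *Mvd*, *Ntmt1* and *1700020D05Rik* (0.998, 0.992 and 0.991) and *Rac1* by *Tlnrd1*, *Emc2* and *Zfp407* (0.982, 0.976 and 0.973). These are descriptions with no test.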

How the data were processed

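Microglial RNA from 3 B41HET and 3 B41KO samples was measured on 1-colour Agilent SurePrint G3 Mouse arrays. The authors deposited the output of the scanner software for every array (Feature Extraction 11.5.1.1). Its processed intensities, as deposited, are background-subtracted and detrended within an array but not normalized between arrays. A table of log2 values, also deposited by the authors, has no stated scale. All its columns have a median of 5.10 and rank the probes as the scanner output does, so it was read as quantile-normalized, its centring and the handling of low values remain unknown, and it served as an alternative.

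Control spots were left out (59305 of 62976 kept), as were 95 to 136 spots per array with an outlier flag. Processed intensities were log2-transformed and quantile normalized, and spots of the same probe were averaged, which gave 56605 probes, of which 56601 had at least 2 values per genotype. Genotype was the only term in limma 3.58.1 (R 4.3.3, with data.table version 1.17.8), with Benjamini-Hochberg adjustment over all probes. Figures were drawn with matplotlib 3.10.9 (Python 3.11.15). Quantile normalization, limma and the thresholds follow the Methods.

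The files name no genes. Transcript identifiers without versions were matched to RefSeq genes on GRCm38.p6, which named 33767 probes (59.7%). The array design names another build, so only the promoter windows, which are from the RefSeq table, carry coordinates. The brightest probe stands for a gene. The members and all gene lists were chosen with earlier results of these data known. Of the genes on the related lists, those called and the 3 with the smallest p among the rest are named, besides every member, markers that moved with a member, *Bhlhe41* and the 3 genes most like each member. *Duox2*, on the list of other NOX enzymes, has no probe named here. One further gene is not reported here.

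The alternatives were a 75th percentile shift, the authors' values, normexp (offset 50), the removal of probes not above background on at least 3 arrays, the use of spots with outlier flags, trend and robust variance, a block for replicate number or for slide row, omission of each sample, the adjusted p alone, a fold of 1.5, and the mean or the lowest-p probe of a gene. The model was tested on simulated data. The number of arrays limits the precision, and p-values measure the spread between these pooled samples.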

Additional observations from a re-analysis of the deposited data

How the results depend on the processing

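Of 146 refitted or resummarized values of the member probes, 143 kept their direction and side of the threshold. The second *Cybb* probe lost its call with the replicate number as a block (-2.01, limma adjusted p = 0.0574) and with slide row as a block (-1.93, adjusted p = 0.0590), and *Cyba* as a mean over its probes turned to 0.13. The count of called member probes, 2, became 1 under each block, and the count of member genes, 1, became 2 on the adjusted p alone, with *Rac2*. The 3 calls on the related lists became 0 with the replicate block, 0 with the slide row block, 5 on the adjusted p alone and 5 with the lowest-p probe of each gene. Leaving out 1 sample gave 0 to 2 calls on these lists, with 0 without B41HET 2 or B41HET 3, 1 without B41HET 1, B41KO 1 or B41KO 2 and 2 without B41KO 3, of which 1 was on the list of other NOX enzymes and not among the 3. The 21 calls on the marker lists became 7 with the replicate block. Leaving out 1 sample gave 2 member probes and 1 member gene each time.

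Over all probes, 2867 calls became 1500 with normexp, 42 with the replicate block, 444 with slide row as a block, and 796 to 1487 with 1 sample left out. Same-numbered samples deviated together by less than the 0.1 required of every pair (correlations of 0.03, 0.01 and 0.05), so the numbers were not taken to pair the samples, although 4 of 6 samples correlated best with their own number, a hint from the data and not from the design. The 75th percentile shift moved the median log2 fold change of all probes from 0.02 to 0.13. Relative to that median the brightest *Ncf1* probe was at -0.01, and the other member probes kept their sign.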
